A study of Mus musculus with 2 samples.

Results

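The genes described here encode 10 subunits of the BAF chromatin remodelling complexes: Smarca4, Smarca2, Smarcb1, Smarcd1, Smarcd2, Smarcd3, Arid1a, Arid1b, Pbrm1 and Dpf3. They were chosen by name, and all 10 were found among the 43346 annotated mouse genes of the deposited tables, with 83 of the 103639 annotated transcripts. Total RNA was sequenced in 2 libraries of B6NCrl mouse heart at embryonic day 16.5, with embryos of both sexes in each pool. Each library was made from pooled hearts with no genetic change or treatment named in the labels. Replicate 2 came from hearts of 41 embryos; the labels do not give that number for replicate 1. The libraries form 1 group, so levels, ratios between subunits and the spread between libraries are described without tests of conditions.

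BAF complexes use the energy of ATP to slide or evict nucleosomes, and so change which regulatory DNA is open. Each complex holds 1 of the ATPases Smarca4 (BRG1) or Smarca2 (BRM) on a shared core, and other positions are filled by alternative members of small gene families. The ARID and PHD-finger subunits set the kind of complex: canonical BAF holds Arid1a or Arid1b, and PBAF holds Arid2, Pbrm1, Brd7 and Phf10. In the heart, Smarcd3 (BAF60c) and Dpf3 are known for their part in muscle gene expression, and Smarca4 for the growth of the embryonic myocardium.

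Several of these genes are made as annotated forms that differ by short coding segments. The sequences below show the segments that separate the leading forms, since the transcript results turn on them. They are coding bases of GENCODE M21 transcripts on GRCm38, 5′ to 3′ along the gene's strand, with the alternative segment in capitals between up to 30 flanking bases in lower case. The first pair is Smarcb1 with and without 27 bases (chr10:75916773-75916799, minus strand), which add 9 codons after residue 68.
Smarcb1-201: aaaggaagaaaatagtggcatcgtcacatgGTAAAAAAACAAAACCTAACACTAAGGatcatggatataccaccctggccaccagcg
Smarcb1-202: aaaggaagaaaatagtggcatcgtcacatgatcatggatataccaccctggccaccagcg

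Smarca4-202 holds 9 bases (chr9:21686013-21686021, plus strand) that Smarca4-204 lacks, 3 codons after residue 1357.
Smarca4-202: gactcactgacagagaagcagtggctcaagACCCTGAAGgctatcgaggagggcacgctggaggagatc
Smarca4-204: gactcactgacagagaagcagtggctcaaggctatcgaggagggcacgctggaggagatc

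Arid1a-202 holds 3 bases (chr4:133687377-133687379, minus strand), not shown, that Arid1a-205 lacks. Further on, Arid1a-205 holds 15 bases (chr4:133686404-133686418, minus strand) that Arid1a-202 lacks. They lengthen a run of CAG and CAA codons after residue 1334, which then ends in a CGA codon.
Arid1a-205: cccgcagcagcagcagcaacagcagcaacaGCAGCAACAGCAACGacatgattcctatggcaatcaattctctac
Arid1a-202: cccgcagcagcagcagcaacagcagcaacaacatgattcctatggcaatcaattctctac

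Arid1b-202 holds a 90-base exon (chr17:5264032-5264121, plus strand), 30 codons after residue 702, that Arid1b-203 skips. The 2 forms differ elsewhere too, since the coding sequence of Arid1b-202 (2244 residues) begins further upstream than that of Arid1b-203 (1762 residues).
Arid1b-202: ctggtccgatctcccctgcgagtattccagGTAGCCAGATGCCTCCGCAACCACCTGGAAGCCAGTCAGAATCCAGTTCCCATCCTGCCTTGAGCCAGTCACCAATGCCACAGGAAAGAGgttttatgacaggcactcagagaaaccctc
Arid1b-203: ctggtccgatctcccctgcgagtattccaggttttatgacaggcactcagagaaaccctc

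Forms of Pbrm1 differ at several internal exons, of which 2 are shown. One of 96 bases (chr14:31045330-31045425, plus strand), 32 codons after residue 299, is in Pbrm1-207 and absent from Pbrm1-215. One of 45 bases (chr14:31056236-31056280, plus strand) is in Pbrm1-211 and absent from Pbrm1-207.
Pbrm1-207 at the 96-base exon: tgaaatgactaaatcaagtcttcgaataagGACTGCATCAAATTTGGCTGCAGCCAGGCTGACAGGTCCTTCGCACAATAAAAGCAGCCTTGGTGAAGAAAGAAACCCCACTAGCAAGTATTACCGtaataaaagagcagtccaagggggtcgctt
Pbrm1-211 at the 45-base exon: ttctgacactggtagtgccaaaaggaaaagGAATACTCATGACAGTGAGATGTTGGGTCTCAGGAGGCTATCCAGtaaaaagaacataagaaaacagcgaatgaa

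Dpf3-207 holds 3 bases (chr12:83331988-83331990, minus strand) after residue 100 that Dpf3-206 lacks. Further on, the forms of Dpf3 part after a shared exon (chr12:83272339-83272467, minus strand). Shown are its last 30 bases in lower case and the first 90 coding bases of each form's own end in capitals. The end of Dpf3-207 (87 more codons) completes the second PHD finger, a fold that reads histone tails, and Dpf3-206 has another end (66 more codons).
Dpf3-207: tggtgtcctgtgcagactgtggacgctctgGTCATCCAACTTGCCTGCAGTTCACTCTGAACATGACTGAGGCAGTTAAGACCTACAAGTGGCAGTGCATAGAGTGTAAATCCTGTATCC
Dpf3-206: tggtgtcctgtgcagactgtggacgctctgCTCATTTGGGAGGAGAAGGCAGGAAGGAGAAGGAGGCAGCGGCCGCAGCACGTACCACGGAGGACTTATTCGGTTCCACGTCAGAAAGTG

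Every member was expressed in both libraries. Levels are in TPM, the length-corrected abundance of a gene's transcripts relative to all transcripts of a library, and are given as the mean ± SD of the 2 libraries (n = 2). All 10 members reached 1 TPM in each library, as did 59.1% of nuclear protein-coding genes. At 10 TPM the counts were 9 of 10 members and 35.5% of those genes. The median member stood at 25.4 TPM, and the median expressed protein-coding gene at 15.9 TPM. The members lie on 10 different chromosomes and together held 29616 estimated counts in replicate 1 and 31337 in replicate 2, of library totals of 37160624 and 40360242. Their levels ran from 5.69 TPM for Arid1b to 92.1 TPM for Smarcb1, which placed them from percentile 24.2 to percentile 88.7 of expressed protein-coding genes. In RNA of a whole organ, fewer cells of a type and less RNA per cell cannot be told apart.

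**Figure D1:**
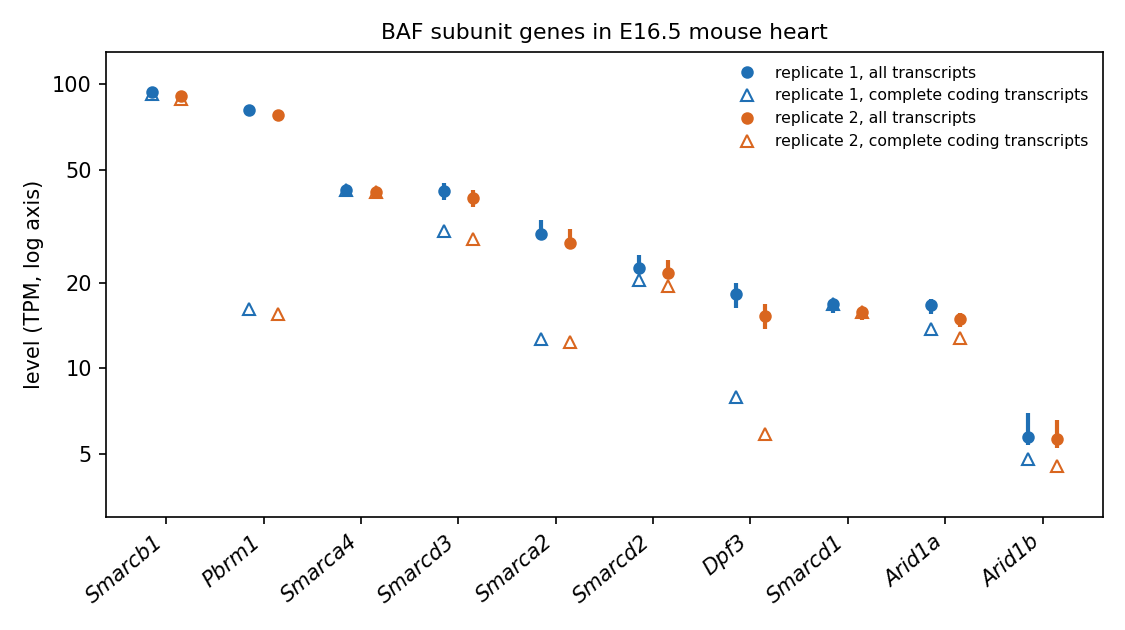
Level of each member in TPM (log axis) in replicate 1 (blue) and replicate 2 (orange). Filled points are all transcripts of the gene with the authors' credibility interval as a vertical line, and open triangles are complete coding transcripts alone. Filled points fall from Smarcb1 (92.1 TPM) to Arid1b (5.69 TPM), and the triangles of Pbrm1, Smarca2 and Dpf3 lie far below their filled points.

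Of the ATPases, Smarca4 was the higher. Smarca4 (ENSMUSG00000032187.12; chr9:21616169-21704230, plus strand) was at 42.5 TPM in replicate 1 and 41.8 TPM in replicate 2. Smarca2 (ENSMUSG00000024921.12; chr19:26605050-26778322, plus strand) was at 29.8 TPM and 27.6 TPM. The authors' credibility intervals of the genes were separate in both libraries. The ratio of Smarca4 to Smarca2, taken as log2 of TPM + 0.1 in each library, was 0.55 ± 0.06, a fold of 1.47. Smarca4 gave 59.5% ± 0.999 of their summed TPM.

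That ratio depended on which Smarca2 transcripts were counted. The tables list 19 transcripts for Smarca2, the most of any member, of which 6 held over 5% of its TPM in at least 1 library. The full-length coding transcript Smarca2-201, which encodes the whole ATPase of 1583 residues, held 26.6% ± 0.707 of the TPM but 56.9% ± 3.81 of the estimated counts. The highest by TPM was Smarca2-215 (31.8% ± 1.38), a 1460-base transcript annotated as a target of nonsense-mediated decay, with an unknown start. Smarca2-202, a nearly full-length transcript of the same class, held 6.60% ± 2.71. Transcripts that start in the last 35 kb of the gene, past most of its exons, held 29.1% ± 1.04 of the TPM and 11.1% ± 0.179 of the counts. They include Smarca2-203 (8.31% ± 1.16, 236 residues), Smarca2-205 (8.82% ± 0.417) and Smarca2-210 (4.40% ± 2.52). Coding transcripts with a complete coding sequence held 43.8% ± 1.65 of Smarca2 TPM and 99.7% ± 0.0136 of Smarca4 TPM. Counting those alone, Smarca4 was at 42.0 TPM ± 0.481 and Smarca2 at 12.5 TPM ± 0.191, a fold of 3.33. For Smarca2 those include short forms of 236 to 276 residues, Smarca2-203 among them, which cannot encode the whole ATPase. Smarca2-201 alone was at 7.77 TPM in replicate 1 and 7.48 TPM in replicate 2. Without length correction, the ratio of Smarca4 to Smarca2 counts over all transcripts was 3.05.

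Smarca4 itself was shared by 2 complete coding forms. Smarca4-204, with 1613 residues, was at 27.9 TPM and 29.1 TPM, which was 67.7% ± 2.86 of the gene. Smarca4-202, with 1617 residues and the 9-base segment shown above, was at 14.5 TPM and 12.5 TPM, or 32.1% ± 2.85. Forms with those 9 bases held 32.3% ± 2.88 of the TPM of forms that span the site and have an annotated coding sequence, called spanning coding forms from here on (targets of nonsense-mediated decay included). Smarca4-202 also holds 3 further coding bases (chr9:21699800-21699802) that Smarca4-204 lacks, and the 2 forms differ in length by untranslated sequence (6376 and 5405 bases). Which of these differences the reads resolved cannot be read from the tables.

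Smarcb1, a core subunit also called SNF5 or BAF47, was the highest member. Smarcb1 (ENSMUSG00000000902.9; chr10:75896769-75921617, minus strand) was at 93.6 TPM in replicate 1 and 90.6 TPM in replicate 2. No single form led. Smarcb1-201, with the 27-base segment and 385 residues, was at 44.7 TPM and 44.8 TPM. Smarcb1-202, without it and with 376 residues, was at 47.4 TPM and 43.8 TPM. The form with the segment took 48.5% of the TPM of spanning coding forms in replicate 1 and 50.6% in replicate 2. Smarcb1-201 and Smarcb1-202 differ in length by more than the segment (1660 and 1622 bases). Which difference the reads resolved is not known. Neither form was the higher in both libraries.

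The Smarcd genes encode BAF60 subunits, which link the complex to transcription factors, and Smarcd3 was the highest of the 3. Smarcd3 (ENSMUSG00000028949.9; chr5:24590818-24624411, minus strand) was at 42.1 TPM and 39.7 TPM. Smarcd2 (ENSMUSG00000078619.6; chr11:106263179-106272972, minus strand) was at 22.6 TPM and 21.6 TPM. Smarcd1 (ENSMUSG00000023018.4; chr15:99702129-99713991, plus strand) was at 16.9 TPM and 15.8 TPM. The intervals of the 3 genes were separate in both libraries. Smarcd3 gave 51.5% ± 0.0561 of their summed TPM, Smarcd2 27.9% ± 0.187 and Smarcd1 20.6% ± 0.131. Smarcd3 stood 2.49-fold above Smarcd1 and 1.85-fold above Smarcd2, and Smarcd2 stood 1.35-fold above Smarcd1.

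With complete coding transcripts alone the order held, at 29.3 TPM ± 1.36 for Smarcd3, 20.0 TPM ± 0.764 for Smarcd2 and 16.4 TPM ± 0.742 for Smarcd1. The estimated counts of the 3 genes lay between 1378 and 1594 in replicate 1 and between 1435 and 1564 in replicate 2. Their mean transcript lengths in replicate 1, weighted by abundance, were 1518 bases for Smarcd3, 2534 for Smarcd2 and 3153 for Smarcd1, so like counts gave unlike TPM. Without length correction, Smarcd3 stood 1.12-fold above Smarcd1 and 1.04-fold above Smarcd2, and in replicate 2 it was below Smarcd2. Smarcd3 also shares 2466 exon bases with Chpf2 on the opposite strand, which was at 10.7 TPM and 10.4 TPM. Its estimated counts were not whole numbers, nor were those of Smarcd1, which shares 287 exon bases with Gm17349. The other 8 members had whole counts in both libraries, to within 0.005. No source used here states whether reads were assigned by strand.

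The leading coding form of Smarcd3 was Smarcd3-201 (71.7% ± 0.446 of TPM, 483 residues). A 538-base transcript, ENSMUST00000123223.1, which is in the tables but not in GENCODE M21, held 10.2% ± 0.898. The retained-intron transcripts Smarcd3-204 and Smarcd3-202 held 7.83% ± 0.247 and 4.57% ± 1.45. Smarcd2-201, with 531 residues, held 72.6% of Smarcd2 TPM in replicate 1 and 83.9% in replicate 2. Smarcd2-203, which begins at another first exon, held 18.0% and 5.97%, and the incomplete Smarcd2-205 5.75% and 0.05%. None of these Smarcd2 transcripts had separate intervals between the libraries. Smarcd1 has 1 transcript in the tables, Smarcd1-201, with 515 residues.

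Arid1a and Arid1b encode the mutually exclusive DNA-binding subunits of canonical BAF, and Arid1a was the higher. Arid1a (ENSMUSG00000007880.12; chr4:133679008-133756769, minus strand) was at 16.7 TPM and 14.9 TPM. Arid1b (ENSMUSG00000069729.9; chr17:4994332-5347656, plus strand) was at 5.74 TPM and 5.64 TPM, the lowest member in both libraries. Arid1a stood 2.75-fold above Arid1b, with separate intervals in each library. The fold was 2.80 over complete coding transcripts and 2.37 without length correction. With Arid2, the ARID subunit of PBAF (11.2 TPM ± 0.120), Arid1a gave 48.3% ± 1.73 of the summed TPM, Arid2 34.3% ± 1.17 and Arid1b 17.4% ± 0.561.

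Arid1a-205, the form with the 15-base segment and 2287 residues, held 79.2% ± 4.27 of Arid1a TPM. Forms with the segment took 92.7% of spanning coding TPM in replicate 1 and 96.9% in replicate 2. Arid1a-202, without it, was at 1.00 TPM and 0.39 TPM. That form also holds the 3 further bases given above, and which difference the reads resolved is not known. The 521-base retained-intron transcript Arid1a-206 held 7.80% ± 2.25 of the TPM but 0.470% ± 0.146 of the counts. For Arid1b, the form that skips the 90-base exon led: Arid1b-203, with 1762 residues, was at 3.38 TPM and 3.48 TPM. Forms with the exon took 29.7% and 23.3% of spanning coding TPM. They were Arid1b-202 (0.71 TPM and 0.97 TPM) and Arid1b-201 (0.72 TPM and 0.09 TPM), whose coding sequences also begin upstream of that of Arid1b-203. The exon's own share therefore cannot be read apart from the upstream start. The retained-intron transcript Arid1b-205 held 14.7% ± 0.0778 of the TPM and 1.76% ± 0.0204 of the counts.

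Pbrm1 encodes the multi-bromodomain subunit that defines PBAF, and its gene total was the next highest after Smarcb1. Pbrm1 (ENSMUSG00000042323.12; chr14:31019138-31121592, plus strand) was at 81.2 TPM and 77.7 TPM, with the most counts of any member, 7684 and 8337. Most of that level was on incomplete coding annotations. Pbrm1-215, whose annotated 931 residues stop short of the end, was at 45.6 TPM and 41.2 TPM, or 54.6% ± 2.21. The 485-base Pbrm1-209 held 11.1% ± 1.10 of the TPM and 1.20% ± 0.137 of the counts. The full-length Pbrm1-207, with 1634 residues, was at 14.4 TPM and 14.2 TPM, or 18.0% ± 0.325 of the TPM and 39.2% ± 0.122 of the counts. Complete coding transcripts together gave 15.9 TPM ± 0.445, which was 19.9% ± 0.0606 of the gene.

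The ratio of Pbrm1 to Arid2, which sit together in PBAF, was 7.02 over all transcripts, 3.57 without length correction and 1.74 over complete coding transcripts. Forms with the 96-base exon took 33.7% and 38.9% of spanning coding TPM. Forms with the 45-base exon took 12.7% and 17.9%. The share of the 96-base exon depends on length correction, since the TPM without it lay on Pbrm1-215, incomplete and 3137 bases long. By counts Pbrm1-215 held 46.3% ± 2.57, and Pbrm1-207 and Pbrm1-211, which hold that exon, 39.2% ± 0.122 and 9.86% ± 3.06. The forms differ elsewhere too, and which difference the reads resolved is not known. Pbrm1-211, which carries both exons and is incomplete at both ends, was at 7.01 TPM in replicate 1 and 10.7 TPM in replicate 2. A 156-base exon near the end of the coding sequence (chr14:31113849-31114004) was in 92.9% ± 0.246 of spanning TPM.

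Dpf3 encodes a PHD-finger subunit (BAF45c) known from heart and muscle. Dpf3 (ENSMUSG00000021221.11; chr12:83213745-83487716, minus strand) was at 18.2 TPM and 15.3 TPM, from 490 and 493 counts, the fewest of any member. Transcripts with the exons of the Dpf3-207 end, which complete the second PHD finger, were at 0.80 TPM and 1.07 TPM, or 5.70% ± 1.84 of the gene. By counts they held 16.4% ± 4.40. Transcripts with the last exon of Dpf3-206 held 60.9% and 63.0% of the TPM and, on the mean, 68.5% ± 2.04 of the counts. The rest lay on Dpf3-202, a 587-base transcript with an unknown start and neither of these ends, at 6.32 TPM and 4.59 TPM.

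Among transcripts with the Dpf3-206 end, the complete Dpf3-206 (356 residues) was at 4.95 TPM and 2.97 TPM. The incomplete Dpf3-203 was at 3.97 TPM and 4.70 TPM, so the order of these 2 differed between the libraries. Dpf3-205, with 315 residues, was at 2.15 TPM and 1.84 TPM. Among the DPF paralogs, Dpf2 (81.8 TPM ± 6.11), which is widely expressed, stood 4.88-fold above Dpf3. That fold was 3.12 over all coding transcripts, 7.57 over complete ones and 9.50 without length correction. Dpf3 stood 8.34-fold above Dpf1 (1.96 TPM ± 0.587), the form known from neurons. Dpf3 gave 16.6% ± 0.593 of the summed TPM of the 3 genes.

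**Figure D2:**
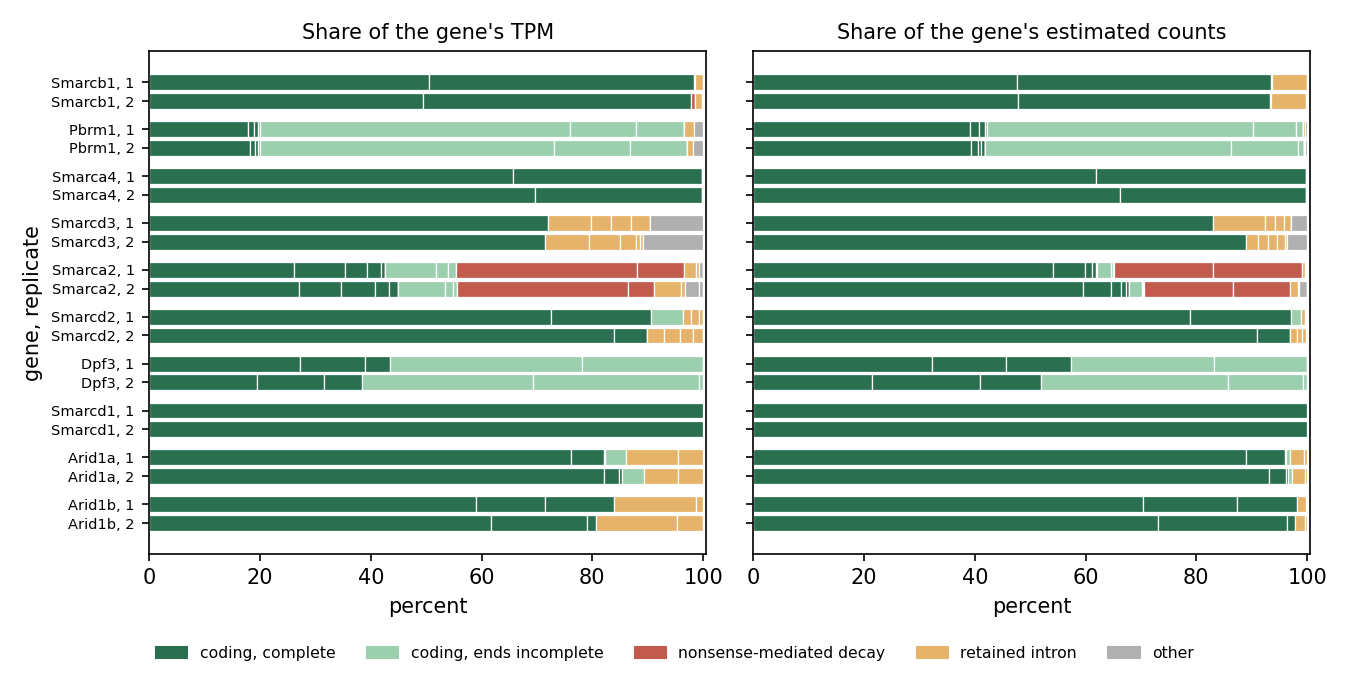
Share of each gene's TPM (left, percent) and of its estimated counts (right, percent) by transcript class, with 1 bar per gene and replicate and white lines between transcripts. Dark green marks coding transcripts complete in GENCODE M21, which held 99.7% of Smarca4 TPM but 19.9% of Pbrm1 TPM, and the paler incomplete forms shrink on the right.

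A leading transcript was counted where the same transcript held over 50% of a gene's TPM in each library. Of the 9 members with 2 or more transcripts, 6 had one: Smarca4, Smarcd2, Smarcd3, Arid1a, Arid1b and Pbrm1. The share among expressed protein-coding genes with 2 or more transcripts was 70.7%. Smarca2, Smarcb1 and Dpf3 had none. In replicate 1 alone Smarcb1-202 also passed, at 50.6%. None of the 9 had the same transcript over 80% in both libraries, as 34.0% of those genes did.

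Ordered by level, 6 of the 9 neighbouring pairs of members were separate in both libraries and 3 were not. Smarcb1 stood 1.16-fold above Pbrm1, and Pbrm1 1.88-fold above Smarca4. Smarca4 and Smarcd3 had overlapping intervals in both libraries (fold of 1.03). Smarcd3 stood 1.43-fold above Smarca2, which stood 1.30-fold above Smarcd2, which stood 1.32-fold above Dpf3. Dpf3, Smarcd1 and Arid1a were not separated in either library, and Dpf3 and Smarcd1 changed places between them. These steps are of gene totals in TPM. Over complete coding transcripts several of them changed. Pbrm1, at 15.9 TPM, was below Smarca4 (42.0 TPM), Smarcd3 (29.3 TPM) and Smarcd2 (20.0 TPM). Smarca2, at 12.5 TPM, was below Smarcd2, Smarcd1 (16.4 TPM) and Arid1a (13.3 TPM). Dpf3, at 6.89 TPM, was below Smarcd1 and Arid1a.

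In all 15 pairs of paralogs or alternative subunits compared, the same gene was the higher in both libraries with separate intervals. The intervals cover counting and assignment error only. No share among pairs of other expressed genes was computed, for this count or for that of neighbouring members, so neither count is particular to these genes. The neuronal forms were the low partners. Actl6b, the actin-like subunit of neuronal BAF, was at 0.10 TPM and 0.26 TPM from 4 and 8 counts, against 77.4 TPM ± 0.219 for Actl6a. Ss18l1 was at 2.75 TPM ± 0.283, against 61.6 TPM ± 4.35 for Ss18. Smarcc2 (38.5 TPM ± 1.17) stood 1.23-fold above Smarcc1 (31.3 TPM ± 1.90), the scaffold pair of the core. Phf10, the PHD subunit of PBAF (22.3 TPM ± 0.750), was 3.65-fold below Dpf2. Bicra (3.95 TPM ± 0.0636) was 1.54-fold above Bicral (2.53 TPM ± 0.0990), both subunits of the non-canonical complex. Brd7 of PBAF (50.7 TPM ± 4.11) was 2.08-fold above Brd9 of the non-canonical complex (24.3 TPM ± 0.898), but 1.06-fold below it over complete coding transcripts.

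**Figure D3:**
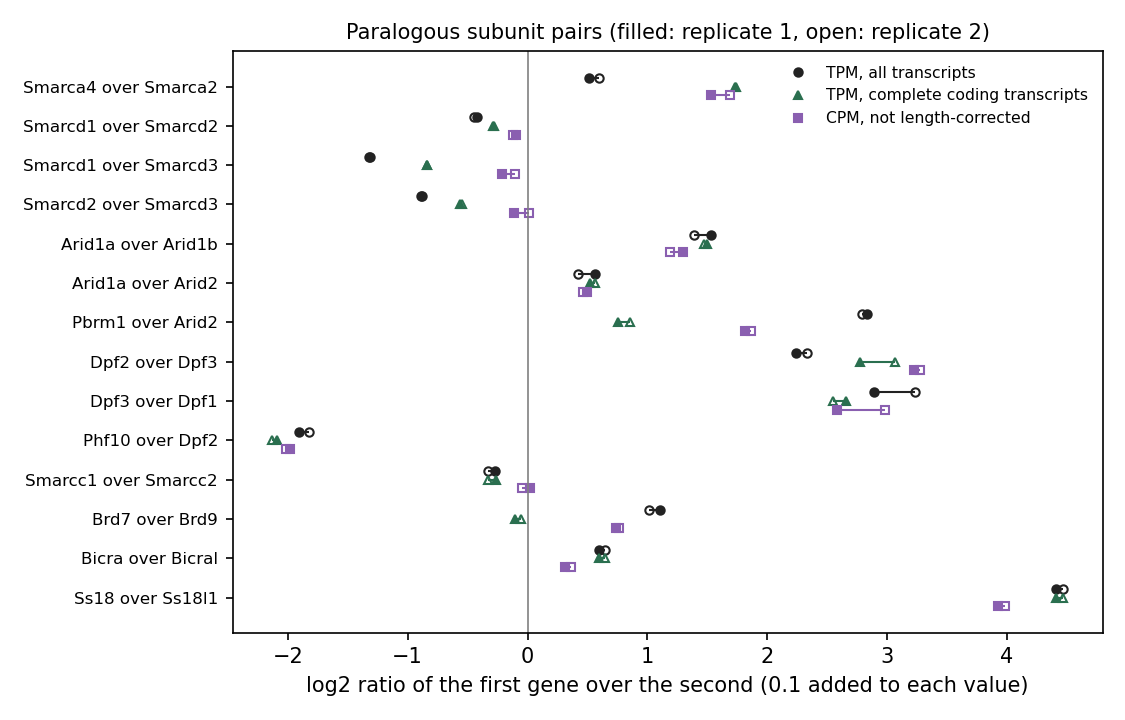
Log2 ratio of the first gene over the second, with 0.1 added to each value, in replicate 1 (filled) and replicate 2 (open), from TPM of all transcripts (black), TPM of complete coding transcripts (green) and CPM without length correction (purple). Smarca4 over Smarca2 moves from 0.55 to 1.74 and Pbrm1 over Arid2 from 2.81 to 0.80, while Arid1a over Arid1b stays between 1.24 and 1.48 on the mean; Actl6a over Actl6b is left out for scale.

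Of the 21 other BAF subunits listed, 20 passed 1 TPM in each library, and the median level was 24.3 TPM. The highest was Actb (2038 TPM ± 326), the actin that also forms the cytoskeleton, then Smarce1 (137.5 TPM ± 4.79), a DNA-binding core subunit. The lowest was Actl6b. Of 17 ATPases of other remodelling complexes, 16 were expressed, with a median of 15.3 TPM. Their highest was Atrx (101.8 TPM ± 2.71) and their lowest Chd5, at 0.02 TPM and 0.03 TPM from 3 and 5 counts. Smarca4 was below Atrx in both libraries, below Chd4 in replicate 1 (52.6 TPM) and above it in replicate 2 (40.3 TPM), and above the other 15 in both.

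**Figure D4:**
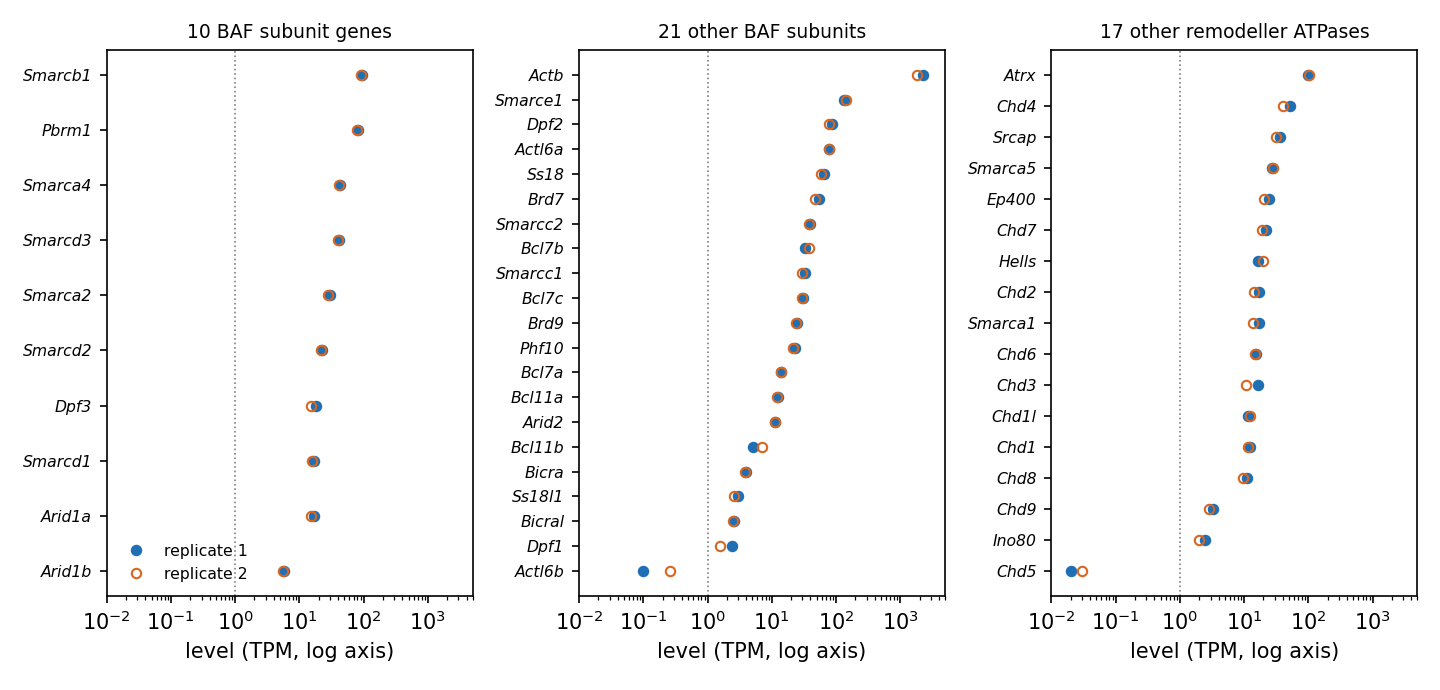
Levels in TPM (log axis) of the 10 members, 21 other BAF subunits and 17 other remodeller ATPases in replicate 1 (filled) and replicate 2 (open), each panel ordered by mean; the dotted line marks 1 TPM. Of the genes shown, Actl6b and Chd5 lie below the line.

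Between the libraries, no member was more than 1.5-fold apart with separate intervals, as were 6.29% of protein-coding genes with a mean of at least 10 counts. None had separate intervals at all, as did 29.7% of expressed protein-coding genes. Log2 ratios of TPM + 0.1, replicate 2 over replicate 1, ran from -0.25 for Dpf3 to -0.02 for Smarca4. All 10 members were lower in replicate 2 in TPM, as were 62.1% of expressed protein-coding genes. Scaled by TMM, a factor from the bulk of genes, 7 of 10 were lower, as were 53.1% of expressed protein-coding genes, and Smarca4, Arid1b and Pbrm1 were higher. The same 3-to-7 split was seen with DESeq2 size factors. The median log2 ratio of the members was -0.07 in TPM and -0.03 after TMM scaling, and that of all expressed protein-coding genes -0.06 and -0.01.

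Spike-in RNA, which is counted in the TPM total, held 3.25% of TPM in replicate 1 and 6.65% in replicate 2. The libraries also differed in markers of other tissues. The 5 lung epithelium markers summed to 942 TPM in replicate 1 and 103 TPM in replicate 2, with 4 of 5 over 1.5-fold apart and Sftpc highest at 883 TPM and 96.7 TPM. The 6 thymocyte markers summed to 40.6 TPM and 110 TPM, with 5 of 6 apart in the other direction. The 5 skeletal muscle markers summed to 9.53 TPM and 26.1 TPM, with 4 apart. The 5 neuron markers summed to 7.56 TPM and 9.92 TPM, with none apart. The 4 atrial markers, all higher in replicate 2, summed to 8336 TPM and 11463 TPM. Other lists were lower there, as the members were in TPM: ventricle (3 of 3 markers lower, 16023 TPM and 12535 TPM), fibroblast (4 of 5, 2351 TPM and 1968 TPM), red cell (5 of 5, 78130 TPM and 65974 TPM) and endothelium (4 of 5, 329 TPM and 305 TPM). The 7 heart muscle markers were all expressed, at 26617 TPM and 25922 TPM in sum, led by Actc1. No marker of these lists was at 0 in either library. The part of these differences in the members' ratios was not tested.

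**Figure D5:**
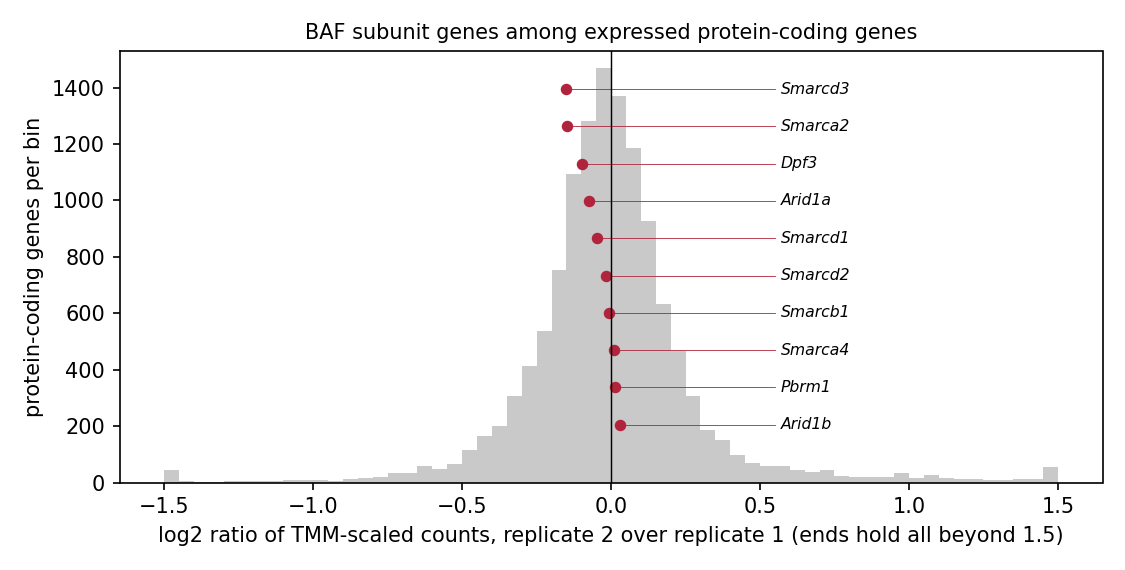
Log2 ratio of TMM-scaled counts, replicate 2 over replicate 1, for the 10 members (red points, placed at arbitrary heights) over the distribution of expressed protein-coding genes (grey bars, genes per bin). The members lie between -0.15 (Smarcd3) and 0.03 (Arid1b), where the tallest bars of the distribution stand.

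At the level of transcripts, 32 member transcripts had a mean of at least 1 TPM. Of these, 1 had separate intervals between the libraries, Pbrm1-211, beside 16.4% of all such transcripts of protein-coding genes.

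Most members' promoter windows were richer in CG pairs than those of expressed genes. The RefSeq table (GRCm38.p6) gave 11 windows for the 10 genes, each from 250 bases before to 50 after a start. Their median GC content was 68.0%, beside 60.7% for windows of expressed protein-coding genes (quartiles 54.0% and 67.3%). Their median number of CG pairs was 33, beside 20.0 (quartiles 11.0 and 28.0). Dpf3, with 17 CG pairs, and Smarcd2, with 4, lay below the latter median. Smarcd2 was also the only window with a match to TATAAA on either strand, which 7.35% of windows of expressed genes hold. That window lies inside the gene, near the start of the minor form Smarcd2-203 and not of the leading Smarcd2-201. The windows of Smarcd3 (40 CG pairs) and Arid1b (42), and the Arid1a window at chr4:133753936-133754235 (36), also lie inside their genes as annotated in GENCODE M21.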

How the data were processed

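Total RNA of 2 pooled heart libraries was analysed. Per the labels' protocols, RNA over 200 nt was extracted with a mirVana kit, 10 ng entered each library and ERCC spike-ins were added. The labels give separate biosamples and 1 donor identifier, and nothing on separate litters, so the spread between libraries may be partly technical. Per the deposited notes, reads were quantified on mm10 with annotation M4, each library apart. No source used here names the aligner or quantification tool. The deposited tables hold estimated counts, TPM with credibility intervals of unstated level, and the percent of a gene's TPM held by each transcript. The intervals go with posterior mean TPM, so a TPM value can lie near or beyond a bound, and both they and the counts cover counting and assignment error only.

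Names, classes, coordinates and completeness came from GENCODE M21, by identifier without version. Of the 83 member transcripts, 69 had the same length there, and 1 was not in M21. A transcript was complete if coding with no tag for a missing end. Transcript results inherit the annotation: a read shared by forms is divided among them by the authors' model, and a short form gains TPM per read. Ratios used TPM + 0.1; genes were apart at over 1.5-fold with separate intervals and a mean of at least 10 counts; pairs differed where both libraries gave 1 direction with separate intervals. Scaling alternatives used edgeR 4.0.16 and DESeq2 1.42.0 on rounded counts. No p-value was computed: for 2 libraries the smallest p of an exact two-sided sign-flip test is 0.5.

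Text names all members, their transcripts over 5% of TPM, the pair genes, and the highest and lowest of the other BAF subunits and of the other ATPases. Marker lists are given by their sums, with single markers named for scale. Members and lists were chosen with earlier results of these data known.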

Additional observations from a re-analysis of the deposited data

How the results depend on the processing

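The counts of members expressed (9 or 10) and apart between libraries (0) held under every alternative run. With 1 leading transcript the count was 6, between 6 and 7 with either library alone, and 0 at over 80%. Pair ratios, log2, kept their direction on the mean of both libraries except Brd7 over Brd9, which became -0.080 over coding transcripts and -0.080 over complete coding transcripts. Smarca4 over Smarca2, 0.55 on the mean of both libraries, was 0.47 from posterior mean TPM, 1.61 without length correction, 1.40 over coding transcripts and 1.74 over complete coding transcripts. In the same order, with the pseudocount of 1 last, Smarcd1 over Smarcd2 was -0.51, -0.11, -0.33, -0.28 and -0.41, Smarcd1 over Smarcd3 -1.34, -0.16, -0.84, -0.84 and -1.27, and Smarcd2 over Smarcd3 -0.83, -0.050, -0.51, -0.55 and -0.86. Without length correction, Smarcd2 over Smarcd3 (-0.12 and 0.02) and Smarcc1 over Smarcc2 (0.02 and -0.05) had opposite directions in replicates 1 and 2. Arid1a over Arid1b was 1.24 without length correction and 1.33 with a pseudocount of 1. The restriction to complete coding transcripts was chosen after seeing the data; it moved the levels of 7 members by more than 1 SD. No paired analysis was possible because the labels give only 1 group. Pool and library preparation cannot be told apart, and 2 libraries give a poor estimate of spread.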
